A study of Homo sapiens with 8 samples.

Results

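Ribosome biogenesis genes were followed as a set of 49 genes, listed by name in a rule that uses no measured value, out of 37526 gene names that all 8 libraries have in common. They encode RNA polymerase I subunits and factors, proteins of the small nucleolar ribonucleoproteins (snoRNPs), assembly factors of the small and the large ribosomal subunit, and abundant nucleolar proteins. RNA was sequenced from NB4 cells, an acute promyelocytic leukaemia (APL) line that carries the PML/RARα fusion, with or without silencing of the histone demethylase KDM3B and with or without all-trans retinoic acid (ATRA), which drives these cells towards granulocytes. The 4 groups had 2 replicates each. Scramble cells carried the control vector, shKDM3B cells an shRNA against KDM3B, and scramble+ATRA and shKDM3B+ATRA were the same stable lines exposed to ATRA. All were transduced with pLVX-shRNA2-puro and selected with puromycin. The labels call the control an empty vector and the methods a scrambled shRNA. The labels also give 1 µM ATRA for 24 or 48 hours without saying which time was sequenced, and the sources used here do not say which KDM3B shRNA was used. The methods speak of RNA-seq done in 2 replicates without saying whether these were separate cultures, so p-values measure the spread between these libraries, which may be technical.

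Ribosome production begins in the nucleolus, where RNA polymerase I transcribes a long precursor that holds most of the ribosomal RNA (rRNA). Box C/D snoRNPs methylate this precursor and box H/ACA snoRNPs turn selected uridines into pseudouridine, while the small subunit processome and a succession of large subunit factors fold it, cut it and load ribosomal proteins. Proliferating cells make many ribosomes, and many genes of this pathway are known targets of the transcription factor MYC, which binds the E-box CACGTG.

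The E-box was therefore looked for in the promoters. RefSeq promoter windows on GRCh38.p14, from 250 bases before to 50 bases after each start, were matched by symbol for 41 of the 49 genes. CACGTG, which reads the same on both strands, stood in at least 1 window of 19 of these 41 genes (46.3%). It stood in 24 of 83 other ribosome biogenesis genes (28.9%), in 1192 of 9230 matched genes tested for ATRA in scramble cells (12.9%), and in 2548 of all 35116 promoter windows (7.26%). The rule that lists the 49 genes describes many of them as MYC targets, so their E-box share is not independent of how they were chosen. The following 30 bases around the E-box, in capitals, belong to the 4 genes with an E-box and the lowest P for ATRA in scramble cells, written on the strand of the gene.
GNL3, plus strand, chr3:52686026-52686055: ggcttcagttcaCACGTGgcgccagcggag
FBL, minus strand, chr19:39846356-39846385: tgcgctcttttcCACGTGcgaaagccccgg
RRP9, minus strand, chr3:51941892-51941921: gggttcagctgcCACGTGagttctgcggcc
PES1, minus strand, chr22:30591880-30591909: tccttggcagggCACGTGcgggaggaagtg
In RRP9 the first base of the motif lay at position -5 from the RefSeq start. In GNL3 and FBL it lay at position 7 and in PES1 at position 14, just inside the transcribed part. A match of letters is not evidence of binding. For comparison, the motif CCGGAAGT, searched on both strands, occurred in 8 of the 41 genes (19.5%) against 10.4% of the tested genes, and TATAAA in 1 (2.44%) against 8.01%.

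The libraries held 9708739 to 33017787 counted read pairs, and all 49 genes passed the low-count filter in every comparison, the lowest count of any of them in a library being 10, for PPAN. Outside genes fell 8.49% to 9.62% of the uniquely aligned pairs of 5 libraries and 50.0% to 51.4% of those of scramble+ATRA replicate 2 and both shKDM3B+ATRA libraries. Pairs that fell on overlapping genes and were left uncounted made up 3.91% to 4.31% of the former and 2.39% to 2.57% of the latter. The comparison of shKDM3B+ATRA with shKDM3B is therefore split along the same line as the treatment, and this property and ATRA cannot be told apart there. KDM3B was lower in both shKDM3B libraries (76.3 and 86.1 CPM, counts scaled by TMM to a common library size, the level used throughout) than in both scramble libraries (187 and 188), and ITGAM, which encodes the granulocyte surface protein CD11b, rose from 20.5 and 26.0 to 216 and 154 CPM in scramble cells with ATRA and from 9.86 and 14.9 to 104 and 106 CPM in shKDM3B cells. It was called lower in shKDM3B than in scramble cells both without ATRA (-0.90, adjusted p = 0.239) and with it (-0.82, adjusted p = 0.502, both by edgeR). The summed level of 4 differentiation markers, ITGAM, ITGAX, CYBB and NCF1, was 380.4 and 363 CPM in scramble, 211 and 203 in shKDM3B, 3256 and 3014 in scramble+ATRA and 1354 and 1682 in shKDM3B+ATRA. Of the promyelocytic markers, MPO and CD33 were present in every library, CD33 at 62.9 to 110.3 CPM, whereas ELANE, AZU1 and PRTN3 reached at most 0.359, 1.47 and 1.16 CPM. MPO, the granule enzyme myeloperoxidase, moved with the groups and stood at 4282 to 5340.4 CPM in scramble, 616 to 729 in scramble+ATRA, 8335 to 9512 in shKDM3B and 2219 to 3126 in shKDM3B+ATRA. CEBPE, a transcription factor of granulocyte maturation, stood at 51.2 to 74.3 CPM without and 259 to 427 with ATRA. The part of these marker changes in the levels of the 49 genes was not tested. Of the markers of other cell types, HBB was at 0 in every library and CD3E reached at most 0.553 CPM, while EPCAM stood at 13.0 to 18.9 CPM in all groups. The summed level of the 6 markers of other cell types was 17.5 to 21.3 CPM without and 18.9 to 27.1 CPM with ATRA, and its part in the results was not tested.

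With ATRA, part of the ribosome biogenesis genes were downregulated and none was upregulated in the 2 comparisons. The quasi-likelihood test of edgeR was used, and a gene was called where its unadjusted P was under 0.05 and it changed by at least 1.5-fold. In scramble cells 17 of the 49 genes were downregulated and 0 upregulated by this rule, where 10.8% of the 12429 genes tested were downregulated and 15.0% upregulated. Only PPAN had an adjusted p under 0.05, where 629 of the 12429 genes were lower and 975 higher at that threshold. These p-values were adjusted by the Benjamini-Hochberg method over all genes tested, as are all adjusted p-values below. The count for the 49 depended on the fit, being 11 with DESeq2, 8 without a low-count filter and 16 with all 8 libraries in one edgeR fit. The shares over all genes in those fits were not determined. The median log2 fold change of the 49 genes was -0.50, beside 0.02 over all genes tested, and 47 of the 49 values lay below 0. In shKDM3B cells 24 genes were downregulated and 0 upregulated, where 18.3% of the 12756 genes tested were downregulated and 24.0% upregulated. Of the 49, 36 were lower at an adjusted p under 0.05, where 2873 of all 12756 genes were lower and 3508 higher. This count of 36 was the same with DESeq2 and 25 with all 8 libraries in one fit. There the median was -0.60, beside 0.04 over all genes, and all 49 values lay below 0. DESeq2 likewise called 0 genes upregulated in both comparisons, and the genes with an unadjusted P under 0.05 by edgeR, 20 in scramble and 38 in shKDM3B cells, all had values below 0. Over all genes tested, 3436 of 12429 in scramble and 7228 of 12756 in shKDM3B cells had such a P, in either direction.

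Both ATRA libraries lay below both untreated libraries for 42 of the 49 genes in scramble cells (85.7%, beside 30.2% of all genes tested) and for 45 in shKDM3B cells (91.8%, beside 38.7%). The genes whose libraries overlapped were UBTF, RRN3, NOP58, NHP2, NOP10, RRP12 and NOP2 in scramble cells and RRN3, NOP58, NHP2 and GAR1 in shKDM3B cells. Together the 49 genes took 1.35% to 1.55% of the read pairs on the shared gene names in the 4 untreated libraries. In scramble+ATRA they took 1.08% and 0.863%, and in shKDM3B+ATRA 0.963% and 0.910%. NPM1, NCL and DDX21 alone took 0.563% to 0.712% without and 0.401% to 0.484% with ATRA. Bulk RNA does not tell fewer cells of a kind from less RNA per cell.

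**Figure D1:**
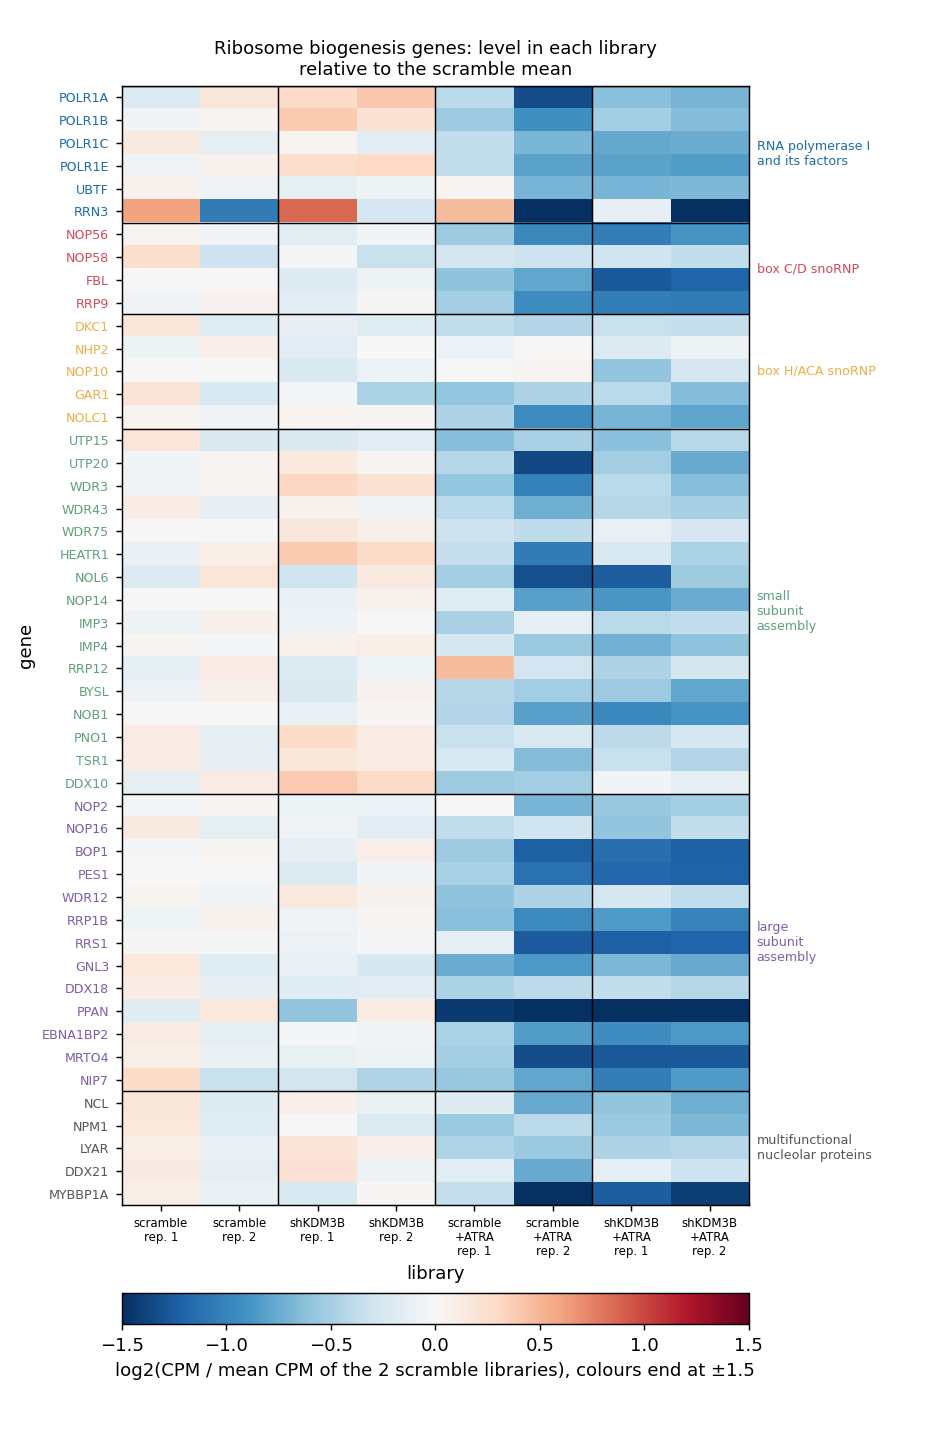
Level of each of the 49 genes (rows, grouped and coloured by role) in each of the 8 libraries (columns), as log2 of its CPM over the mean CPM of the 2 scramble libraries, blue for lower and red for higher, with colours ending at ±1.5. The median over the genes was 0.02 and -0.02 in the scramble libraries, -0.05 and 0.00 in the shKDM3B libraries, -0.43 and -0.76 in scramble+ATRA and -0.59 and -0.67 in shKDM3B+ATRA.

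The decrease in scramble cells differed between the 2 ATRA libraries. In replicate 2, which has 50.0% of its read pairs outside genes, 38 of the 49 genes were lower than in replicate 1, with a median log2 difference of -0.37, beside 0.00 over 13528 genes. The difference ran from -2.08 for RRN3 to 0.34 for IMP3. Its median was -0.10 for the 15 genes with under 3000 exon bases and -0.50 for the 12 with at least 8000, and over all genes it was 0.12 and -0.18 for the same lengths. Replicate 1, whose share outside genes is like that of the untreated libraries, had 44 of the 49 genes below the scramble mean. With 1 library in a group, edgeR takes the spread from the 2 libraries of the other group alone and assumes that the lone library varies like them. Tested in this way against both scramble libraries, replicate 1 left 6 genes downregulated, namely FBL, GNL3, PPAN, RRP1B, UTP15 and WDR12, with 11.7% of all genes downregulated, and a median of -0.43 beside -0.02 over all genes. The number called there was thus near the background share. Replicate 2 alone gave 31 downregulated genes, where 17.0% of all genes were downregulated, and a median of -0.73 beside 0.01. Leaving out scramble replicate 1 left only PPAN called, where 5.11% of all genes were downregulated, and leaving out scramble replicate 2 left GNL3 and NIP7, where 4.11% were. The median was below 0 in all 4 cases, from -0.73 to -0.43, whereas the number of calls ran from 1 to 31.

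**Figure D2:**
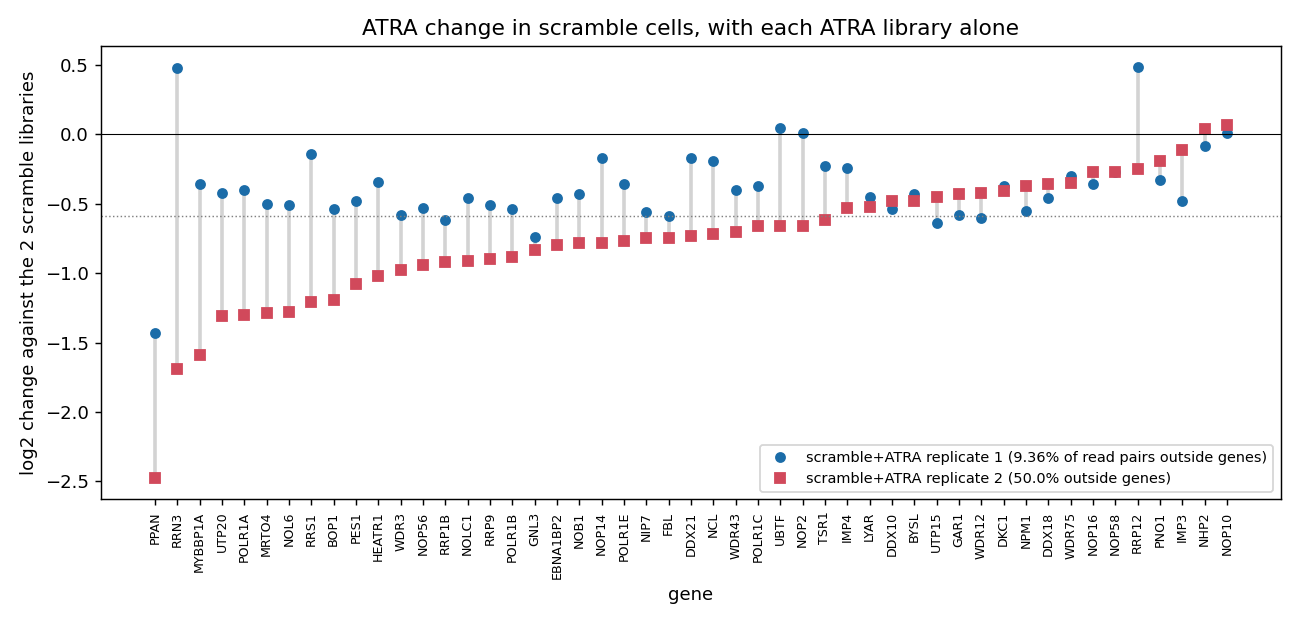
Log2 fold change of each of the 49 genes (x axis) against the 2 scramble libraries (y axis) with scramble+ATRA replicate 1 alone (blue circles) and replicate 2 alone (red squares), the grey line joining both values of a gene and the dotted line marking a fall by 1.5-fold. Replicate 1 placed GNL3 at -0.74 and MYBBP1A at -0.36, and replicate 2 placed them at -0.83 and -1.59.

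Among RNA polymerase I and its factors, 2 of 6 genes were downregulated with ATRA in scramble cells and 4 of 6 in shKDM3B cells, with medians of -0.51 and -0.89. The same role in the further list of ribosome biogenesis genes holds POLR1D, TAF1A, TAF1B, TAF1C, TAF1D and TTF1, of which 5 of 6 had values above 0 on each background, with medians of 0.15 and 0.18 and 0 downregulated. POLR1A, which encodes the largest subunit (chr2:86020216-86106155, minus strand, hg38), stood at 174 and 226 CPM in scramble and at 151 and 79.3 in scramble+ATRA, replicates 1 and 2 in this order here and throughout. In shKDM3B it stood at 243 and 265 CPM and in shKDM3B+ATRA at 129 and 123. The ATRA libraries lay below the untreated ones on both backgrounds, and scramble+ATRA replicate 2 was the lowest of all 8. The log2 fold change was -0.76 in scramble cells (standard error 0.32, adjusted p = 0.178 by edgeR) and -0.96 in shKDM3B cells (standard error 0.12, adjusted p = 1.7e-04). POLR1B, the second catalytic subunit, stood at 100.5 and 106 CPM in scramble, 70.7 and 54.6 in scramble+ATRA, 135 and 120.1 in shKDM3B and 72.6 and 65.7 in shKDM3B+ATRA. Its groups did not overlap on either background, with log2 fold changes of -0.68 and -0.83. POLR1C, a subunit shared with RNA polymerase III, was called only in shKDM3B cells (-0.64), as was POLR1E, which encodes the subunit PAF53 (-1.05).

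UBTF and RRN3, factors that bring the polymerase to the promoter, did not pass the test, whereas TAF1B of the promoter factor SL1, from the further list, was called higher in shKDM3B cells (0.64, adjusted p = 0.0186 by edgeR) and stood at 0.37 in scramble cells (adjusted p = 0.441). UBTF, the upstream binding factor of rRNA genes, stood at 298 and 276 CPM in scramble and at 294 and 177 in scramble+ATRA, so that replicate 1 lay within the scramble range and replicate 2 below it. It stood at 262 and 271 CPM in shKDM3B and at 176 and 179 in shKDM3B+ATRA. These did not overlap, and the log2 fold change of -0.53 had an adjusted p of 0.00425 by edgeR but did not reach 1.5-fold. RRN3, which links the polymerase to the promoter factors, stood at 20.9 and 6.67 CPM in scramble, 25 and 11.5 in shKDM3B, 19.1 and 4.15 in scramble+ATRA and 12.6 and 2.31 in shKDM3B+ATRA. Replicate 1 exceeded replicate 2 in every group, and 3 pseudogenes carry its name, so its counts are uncertain. Its log2 fold change was -0.20 in scramble cells (adjusted p = 0.889) and -1.23 in shKDM3B cells (adjusted p = 0.110 by edgeR). In shKDM3B cells RRN3 was called lower with the replicate number as a block, with the likelihood ratio test and without a low-count filter.

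Of the 4 box C/D snoRNP genes, FBL, NOP56 and RRP9 were downregulated on both backgrounds and NOP58 on neither. FBL encodes fibrillarin, the methyltransferase of these particles (chr19:39834458-39846379, minus strand). It stood at 238 and 242 CPM in scramble, 158 and 139 in scramble+ATRA, 209.6 and 228 in shKDM3B and 101 and 104 in shKDM3B+ATRA. All 4 ATRA libraries lay below all 4 untreated ones, and the lowest were those of shKDM3B+ATRA. The log2 fold change was -0.66 in scramble cells (standard error 0.20, adjusted p = 0.0787) and -1.04 in shKDM3B cells (standard error 0.12, adjusted p = 1.0e-04, both by edgeR). NOP56, a core protein of the particle (chr20:2652593-2658393, plus strand), stood at 558 and 529.8 CPM in scramble, 376 and 277 in scramble+ATRA, 488 and 531 in shKDM3B and 265 and 295 in shKDM3B+ATRA. Every ATRA library was again below every untreated one, with log2 fold changes of -0.70 (standard error 0.22, adjusted p = 0.0881 by edgeR) and -0.81 (adjusted p = 5.2e-04). RRP9, a protein of the U3 snoRNP, fell from 81.9 and 89.2 to 59.9 and 44.8 CPM in scramble cells and from 76.1 and 86.3 to 41.7 and 41.5 CPM in shKDM3B cells. NOP58, the partner of NOP56, stood at 311 and 209.9 CPM in scramble and at 215 and 211 in scramble+ATRA, and the log2 fold change was -0.26 there and -0.11 in shKDM3B cells.

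The 5 box H/ACA snoRNP genes had a median of -0.37 in scramble cells and of -0.20 in shKDM3B cells, each the nearest to 0 of the 6 roles. DKC1, the pseudouridine synthase dyskerin (chrX:154762742-154777689, plus strand), stood at 431 and 337 CPM in scramble, 296 and 282 in scramble+ATRA, 354 and 337 in shKDM3B and 305 and 303 in shKDM3B+ATRA. Its ATRA libraries lay below the untreated ones on both backgrounds, yet the log2 fold changes of -0.37 (adjusted p = 0.318) and -0.13 (adjusted p = 0.354) did not pass edgeR's test. NOP10 (chr15:34339159-34343180, minus strand) stood at 131 and 133 CPM in scramble and at 133 and 136 in scramble+ATRA, a log2 fold change of 0.06 with a standard error of 0.19. In shKDM3B cells NOP10 stood at 112 and 124 CPM without and at 88.0 and 111 with ATRA (log2 fold change -0.20, adjusted p = 0.285 by edgeR). NHP2 stood between 104 and 127 CPM in all 8 libraries, and 28.0% of its exon bases overlap a gene on the opposite strand. The 1 gene of this role that was called, on both backgrounds, was NOLC1, a chaperone of both classes of snoRNP and no core protein of either, which fell from 877 and 822 to 615 and 441 CPM in scramble cells and from 869 and 876 to 526 and 491 CPM in shKDM3B cells.

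**Figure D3:**
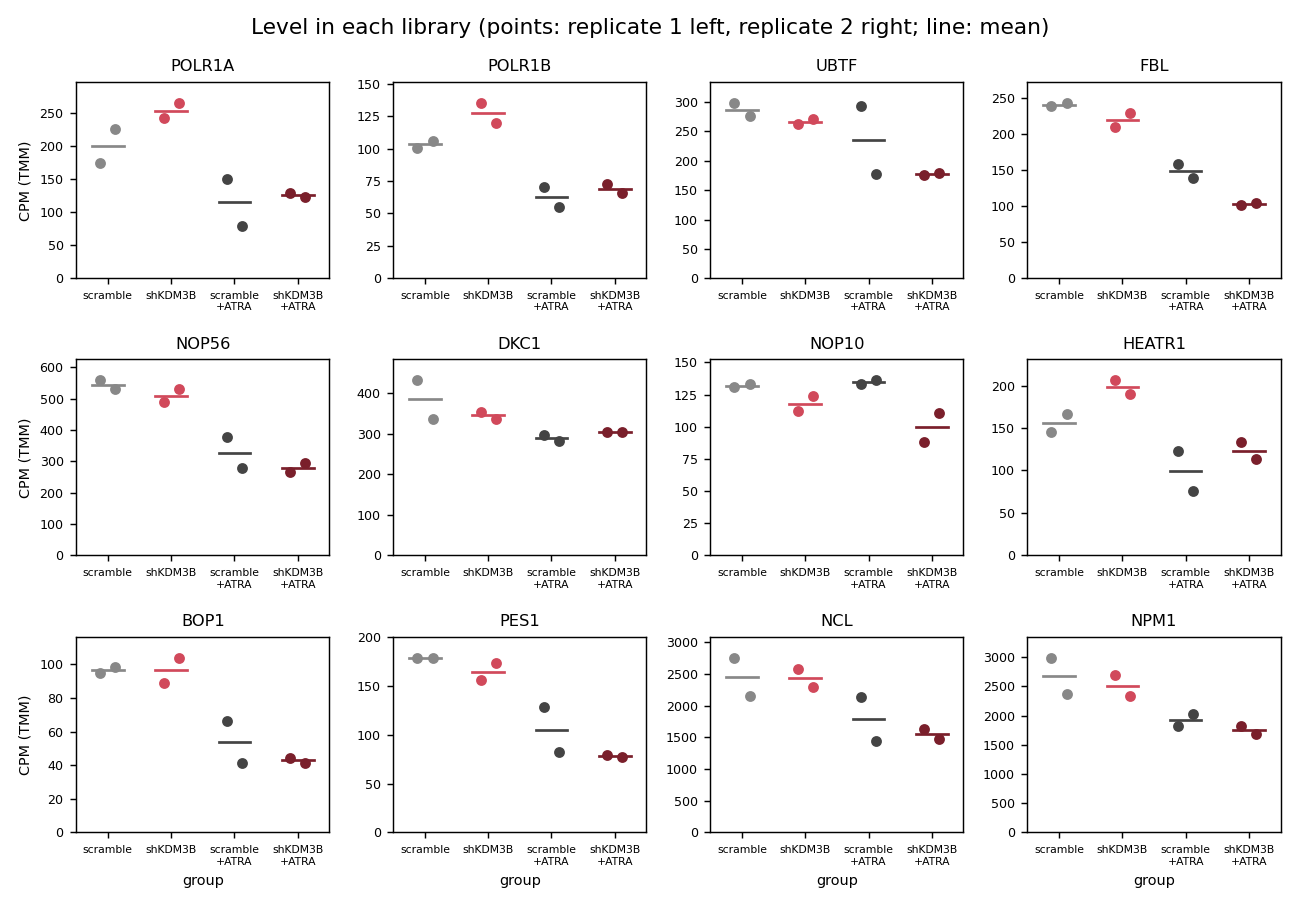
TMM-scaled CPM (y axis, starting at 0) of 12 genes in the 4 groups (x axis), with replicate 1 left and replicate 2 right in each group and a line at the mean. All genes shown except UBTF and NOP10 have every ATRA library below every untreated one. Other genes of the 49 do not, such as GAR1 (52.7 CPM in shKDM3B replicate 2, 55.5 in shKDM3B+ATRA replicate 1) and DDX10 (61.7 in scramble replicate 1, 66.1 in shKDM3B+ATRA replicate 1). How often this holds over all genes was not determined.

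Among the 16 small subunit factors, 3 were downregulated with ATRA in scramble cells (NOL6, UTP20 and WDR3) and 7 in shKDM3B cells (the same 3 with HEATR1, IMP4, NOB1 and NOP14). The medians were -0.47 and -0.51. WDR3, a processome protein (chr1:117929720-117966543, plus strand), stood at 126 and 133 CPM in scramble, 86.3 and 64.0 in scramble+ATRA, 159.8 and 150.4 in shKDM3B and 98.1 and 83.2 in shKDM3B+ATRA. Each ATRA library was below each untreated one. Its log2 fold change was -0.75 in scramble cells (standard error 0.22, adjusted p = 0.0715 by edgeR) and -0.72 in shKDM3B cells (adjusted p = 0.00160). HEATR1, a large processome scaffold (chr1:236549005-236604516, minus strand), stood at 145 and 167 CPM in scramble, 123 and 75.3 in scramble+ATRA, 206 and 189.8 in shKDM3B and 133 and 113 in shKDM3B+ATRA. The groups did not overlap on either background, but in scramble cells HEATR1 did not pass the test (log2 fold change -0.62, adjusted p = 0.186 by edgeR).

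NOB1, the endonuclease that makes the mature end of the small subunit rRNA (chr16:69741871-69754926, minus strand), stood at 148 and 149 CPM in scramble, 109 and 84.4 in scramble+ATRA, 137 and 150.0 in shKDM3B and 75.7 and 80.1 in shKDM3B+ATRA. With -0.58 (adjusted p = 0.131 by edgeR) it was just under 1.5-fold in scramble cells, and it fell by 0.83 on the log2 scale in shKDM3B cells. UTP20 fell from 119.7 and 127 to 92.1 and 48.5 CPM in scramble cells and from 137 and 127 to 85.9 and 73.0 CPM in shKDM3B cells. NOL6 fell from 137 and 179.9 to 111 and 63.6 CPM in scramble cells and from 129 and 174 to 67.6 and 109.9 CPM in shKDM3B cells. At the other end RRP12, a factor of subunit maturation and export, stood at 152 and 182 CPM in scramble and at 233 and 137 in scramble+ATRA, 1 library above and 1 below. The remaining small subunit factors called on neither background (UTP15, WDR43, WDR75, IMP3, BYSL, PNO1, TSR1 and DDX10) had log2 fold changes of -0.53 to -0.25 in scramble cells and -0.54 to -0.26 in shKDM3B cells.

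Large subunit factors held 8 of the 17 genes called in scramble cells, of 13 measured, and 7 of the 24 called in shKDM3B cells, with medians of -0.64 and -0.81. PPAN, an early large subunit factor (chr19:10106362-10112012, plus strand), had the most negative value on both backgrounds. It stood at 7.93 and 10.0 CPM in scramble, 3.31 and 1.57 in scramble+ATRA, 5.96 and 9.72 in shKDM3B and 1.05 and 1.41 in shKDM3B+ATRA. The log2 fold change was -1.83 in scramble cells (standard error 0.45, adjusted p = 0.0395 by edgeR) and -2.62 in shKDM3B cells (standard error 0.38, adjusted p = 4.2e-04). Its level was the lowest of the 49 genes per exon length, 3.11 CPM per kilobase in scramble. Of its exon bases, 49.2% overlap others on the same strand, those of the readthrough PPAN-P2RY11 and of P2RY11, so read pairs there were left uncounted as ambiguous and its level is uncertain.

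PES1, BOP1 and WDR12 form the PeBoW complex, which is needed to process the large subunit rRNA. PES1 (chr22:30576625-30607083, minus strand) stood at 179 and 178 CPM in scramble, 128 and 82.5 in scramble+ATRA, 156 and 173 in shKDM3B and 78.9 and 76.9 in shKDM3B+ATRA. BOP1 (chr8:144262045-144291438, minus strand) stood at 94.9 and 98.6 CPM in scramble, 66.3 and 41.3 in scramble+ATRA, 88.6 and 104 in shKDM3B and 44.3 and 41.4 in shKDM3B+ATRA. For both genes every ATRA library lay below every untreated one. PES1 changed by -0.73 in scramble cells (adjusted p = 0.109) and by -1.03 in shKDM3B cells (standard error 0.13, adjusted p = 1.4e-04), and BOP1 by -0.81 (adjusted p = 0.0950) and -1.11 (standard error 0.14, adjusted p = 1.8e-04, all by edgeR). WDR12, the third partner, had 109 and 103 CPM in scramble and 69.8 and 77.2 in scramble+ATRA. Its log2 fold changes of -0.50 and -0.36 were under 1.5-fold, so that it was called on neither background.

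GNL3, the GTPase nucleostemin (chr3:52681156-52694497, plus strand), stood at 347 and 275 CPM in scramble, 186 and 171 in scramble+ATRA, 289 and 264 in shKDM3B and 195 and 184 in shKDM3B+ATRA. Both scramble+ATRA libraries lay well below the scramble libraries and near each other, a change of -0.77 on the log2 scale (standard error 0.22, adjusted p = 0.0619 by edgeR). In shKDM3B cells it was -0.49 and under 1.5-fold, with an adjusted p of 0.00764. RRP1B, a nucleolar protein of rRNA processing (chr21:43659560-43696079, plus strand), fell from 215 and 236 to 146 and 116 CPM in scramble cells (log2 fold change -0.75, standard error 0.21, adjusted p = 0.0647 by edgeR) and from 218 and 231 to 125 and 113 CPM in shKDM3B cells. MRTO4, which holds the place of a stalk protein on the maturing subunit (chr1:19251805-19260128, plus strand), had the lowest P of the 49 genes in shKDM3B cells. It went from 175 and 179.9 to 79.1 and 79.4 CPM there (log2 fold change -1.11, standard error 0.12, adjusted p = 6.2e-05 by edgeR) and from 203 and 177 to 134 and 75.7 CPM in scramble cells.

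The remaining large subunit factors called were EBNA1BP2 on both backgrounds (-0.61 and -0.81), NIP7 in scramble cells alone (-0.64, and -0.53 in shKDM3B cells) and RRS1 in shKDM3B cells alone (-1.10, and -0.56 in scramble cells). RRS1, which helps to load the particle of the smallest rRNA, showed how far the scramble+ATRA libraries can differ. It stood at 56.6 and 55.4 CPM in scramble and at 50.5 and 23.6 in scramble+ATRA, while both shKDM3B+ATRA libraries were at 24.0 and 24.5. NOP2, NOP16, WDR12 and DDX18 were called on neither background.

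Of the 5 multifunctional nucleolar proteins 0 were downregulated with ATRA in scramble cells and 2 in shKDM3B cells, with medians of -0.45 and -0.53. NPM1 and NCL had the highest levels of the 49 genes per exon length, 323 and 275 CPM per kilobase in scramble, followed by NOLC1 with 214. NPM1, nucleophosmin (chr5:171387116-171411810, plus strand), stood at 2994 and 2376 CPM in scramble, 1819 and 2029 in scramble+ATRA, 2696 and 2329.8 in shKDM3B and 1826 and 1689 in shKDM3B+ATRA. All ATRA libraries were below all untreated ones, with log2 fold changes of -0.45 (adjusted p = 0.206) and -0.46 (adjusted p = 0.0106, both by edgeR), each under 1.5-fold. Pairs of reads could also be shared with its 49 named pseudogenes. NCL, nucleolin (chr2:231453531-231483641, minus strand), stood at 2760.2 and 2149 CPM in scramble, 2143 and 1450.4 in scramble+ATRA, 2583 and 2295 in shKDM3B and 1632 and 1475 in shKDM3B+ATRA. It was called in shKDM3B cells (log2 fold change -0.60, adjusted p = 0.00263 by edgeR), not in scramble cells (-0.42, adjusted p = 0.327), where replicate 1 with ATRA lay just below the lower scramble library. MYBBP1A, a nucleolar regulator of rRNA synthesis, fell from 80.2 and 95.4 to 39.9 and 35.4 CPM in shKDM3B cells (log2 fold change -1.17, standard error 0.15, adjusted p = 1.9e-04 by edgeR). In scramble cells it stood at 100.3 and 87.9 CPM without and at 73.2 and 30.5 with ATRA, and the log2 fold change of -0.83 did not pass the test (adjusted p = 0.213 by edgeR). LYAR and DDX21, an RNA helicase, were called on neither background.

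The ATRA comparisons in scramble and in shKDM3B cells share no library. Of the 17 genes called in scramble cells 15 were also called in shKDM3B cells (88.2%), and these were 62.5% of the 24 called there. The shared genes were POLR1A, POLR1B, NOP56, FBL, RRP9, NOLC1, UTP20, WDR3, NOL6, BOP1, PES1, RRP1B, PPAN, EBNA1BP2 and MRTO4. Over the 11968 genes tested on both backgrounds, 1091 of the 1286 downregulated in scramble cells were also downregulated in shKDM3B cells (84.8%), which were 47.6% of the 2290 there, so that the overlap of the 49 genes is not shown to be particular to them. Across the 49 genes the log2 fold changes on the 2 backgrounds had a Pearson correlation of 0.796 and a Spearman correlation of 0.681, beside 0.909 and 0.838 over all those genes. This describes genes, which are not independent replicates, and 3 of the 4 ATRA libraries share the high fraction of read pairs outside genes.

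**Figure D4:**
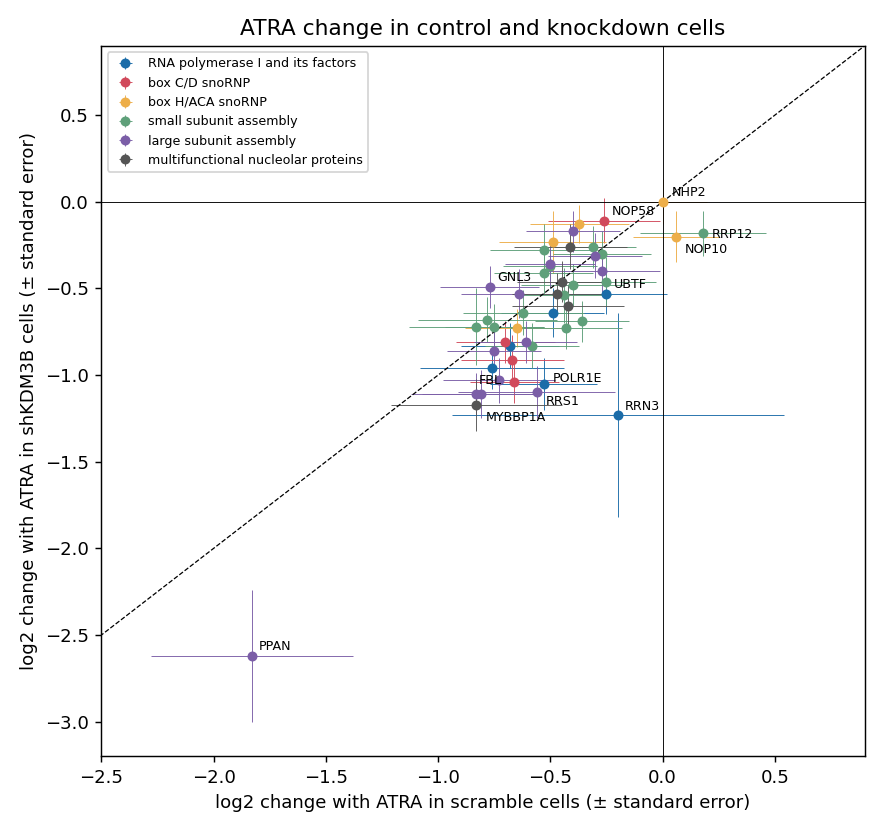
Log2 fold change with ATRA in scramble cells (x axis) against that in shKDM3B cells (y axis) for the 49 genes, coloured by role, with bars of 1 standard error, a dashed line of equal change and the names of 12 genes. PPAN lies farthest out at -1.83 and -2.62, RRN3 has the widest bars, and NOP10 (0.06 and -0.20) and RRP12 (0.18 and -0.18) lie right of the vertical zero line.

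Whether KDM3B silencing changed the ATRA response was tested as a difference between both responses over all 8 libraries. By edgeR's quasi-likelihood test 0 of the 49 genes were called in either direction, where 1.27% of the 13528 genes tested were called higher and 2.72% lower. At an unadjusted P under 0.05 the count was also 0, and DESeq2 called 0 with 1 gene at that P. The median difference was -0.13, beside -0.02 over all genes, and the median standard error of a gene was 0.25. FBL had a difference of -0.40 (standard error 0.18, adjusted p = 1.00 by edgeR), POLR1A of -0.22 (standard error 0.41), NOP56 of -0.13 (standard error 0.24) and NPM1 of -0.03 (standard error 0.21). The values moved with single libraries, the group left with 1 library being assumed to vary like the others. Without scramble+ATRA replicate 2, 11 genes were called lower, where 9.03% of all genes were called lower and 8.34% higher, and the median was -0.32. Without replicate 1, UTP20 was called higher, where 2.75% of all genes were, and the median was 0.10.

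KDM3B silencing without ATRA gave no called gene among the 49. In the comparison of shKDM3B with scramble 0 were called in either direction, where 3.48% of the 13855 genes tested were called higher and 3.53% lower. At an unadjusted P under 0.05 edgeR had 0 of them and DESeq2 also 0, whereas edgeR with the replicate number as a block had 9, of which 1 had an adjusted p under 0.05, and edgeR without a low-count filter had 3, all of them under 1.5-fold. Log2 fold changes ran from -0.36 for NIP7 to 0.40 for RRN3, with a median of -0.06, beside 0.00 over all genes, and a median standard error of 0.15. The 6 genes of RNA polymerase I and its factors had a median of 0.29, while the 6 further genes of that role all lay below 0 with a median of -0.08, and 0 of either were called. Among the former were POLR1A at 0.35 (standard error 0.17, adjusted p = 0.558) and POLR1B at 0.31 (standard error 0.15, adjusted p = 0.553), and HEATR1 of the small subunit had 0.34 (standard error 0.15, adjusted p = 0.50, all by edgeR). For these 3 genes both shKDM3B libraries lay above both scramble libraries, and how often this holds over all genes was not determined. DDX10 (0.34), POLR1E (0.28) and WDR3 (0.26) also had positive values and did not pass the test. Of the 14 genes named by role NOP56 stood at -0.10, FBL at -0.14, DKC1 at -0.15, NOP10 at -0.16, PES1 at -0.12, NPM1 at -0.10, UBTF at -0.11, NOB1 at -0.05, and BOP1 and NCL at -0.01. MYC stood at 452 and 614 CPM in scramble and at 765 and 911 in shKDM3B, and at 264 and 313 in scramble+ATRA and 374 and 346 in shKDM3B+ATRA. Its libraries were thus higher with the silencing on both sides and lower with ATRA on both, and its part in the levels of the 49 genes was not tested.

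With ATRA present, shKDM3B+ATRA and scramble+ATRA cells differed by no called gene of the 49, where 2.42% of the 14281 genes tested were called higher and 4.37% lower. At an unadjusted P under 0.05 edgeR gave 2 genes, FBL (-0.54, adjusted p = 0.502) and DDX10, an RNA helicase of the small subunit (0.45, adjusted p = 0.502), both under 1.5-fold, and DESeq2 gave 3 with 0 called. FBL stood at 158 and 139 CPM in scramble+ATRA against 101 and 104 in shKDM3B+ATRA, and DDX10 at 46.4 and 47.3 against 66.1 and 61.5. The median was -0.14, beside 0.03 over all genes. Of the named genes UBTF had -0.41, NOP10 -0.43, PES1 -0.43, BOP1 -0.33, NOB1 -0.31, NOP56 -0.22, NCL -0.21, NPM1 -0.13, DKC1 0.07, POLR1A 0.14, POLR1B 0.15 and HEATR1 0.31. The values moved with the control library, and a control of 1 library is assumed to vary like the shKDM3B+ATRA libraries. With scramble+ATRA replicate 2 alone, which is alike in its share outside genes, HEATR1, POLR1A, RRN3 and UTP20 were called higher, where 8.78% of all genes were, a share near that of the 49, and 0 were called lower, where 8.19% were. The median was 0.02, beside 0.01 over all genes. With replicate 1 alone 11 genes were called lower, namely BOP1, FBL, MRTO4, MYBBP1A, NOP14, PES1, PPAN, RRN3, RRP12, RRS1 and UBTF, where 13.3% of all genes were called lower and 23.2% higher, and the median was -0.27, beside 0.07 over all genes.

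**Figure D5:**
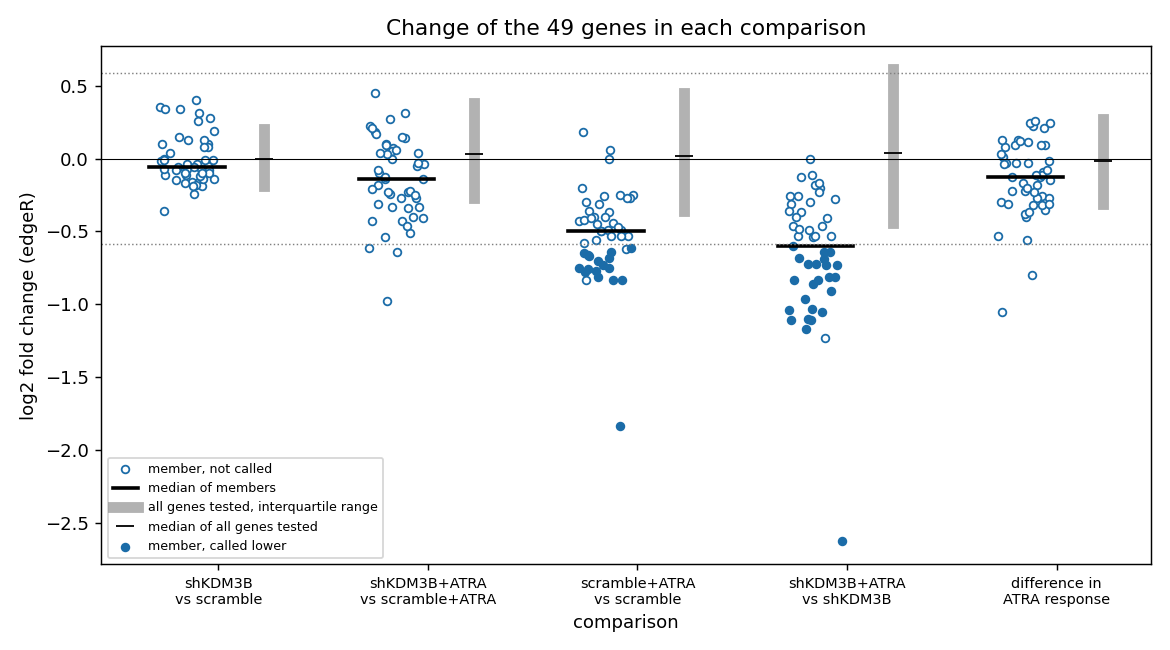
Log2 fold change (y axis) of each of the 49 genes in the 4 comparisons and in the difference between both ATRA responses (x axis), filled where called lower, with the median as a black line, beside the interquartile range and median of all genes tested in grey. Dotted lines mark 1.5-fold, and medians of the 49 genes are -0.06, -0.14, -0.50, -0.60 and -0.13 from left to right.

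Genes with and without the E-box are set side by side here without a test. In scramble cells 8 of the 19 genes with CACGTG and 6 of the 22 without it were downregulated, with medians of -0.53 and -0.49. Of all matched genes tested there, 12.9% of the 1192 with CACGTG and 10.1% of the 8038 without it were downregulated, with medians of -0.08 and 0.04. In shKDM3B cells the counts were 10 of 19 and 9 of 22 and the medians -0.68 and -0.53, where 21.1% of 1208 and 16.8% of 8183 genes were downregulated, with medians of -0.07 and 0.06. MYC itself changed by -0.85 in scramble cells (adjusted p = 0.0600) and by -1.17 in shKDM3B cells (adjusted p = 7.5e-05, both by edgeR).

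A further 97 genes of ribosome biogenesis, listed from textbook knowledge, had median changes nearer to 0 with ATRA. In scramble cells 95 were tested with ATRA, of which 12 were downregulated and 2 upregulated, with a median of -0.25. The downregulated share was near the 10.8% of all genes. The lowest P values were those of NLE1 (-1.26), a partner of the remodelling ATPase MDN1, URB2 (-1.02) and PAK1IP1 (-0.87), and the 2 upregulated genes were EXOSC4 (0.69), a subunit of the RNA exosome, and NMD3 (0.62), an export adapter of the large subunit. In shKDM3B cells 22 of 95 were downregulated and 4 upregulated, with a median of -0.26, where 18.3% of all genes were downregulated. MDN1 (-1.46), NLE1 (-1.37) and URB1 (-1.14) had the lowest P among the former and EXOSC9 (1.08), EMG1 (0.71) and UTP23 (0.98) among the latter. For KDM3B silencing without ATRA 1 of 95 was called higher, MDN1 (0.91, adjusted p = 0.147 by edgeR), and 0 lower, where 3.48% of all genes were called higher. With ATRA present 1 of 94 was called lower, TSR2 (-0.61, adjusted p = 0.508 by edgeR), where 4.37% of all genes were. In the difference between both responses EXOSC4 was called lower (-0.73, adjusted p = 1.00 by edgeR), where 2.72% of all genes were.

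Gene models limit the values of some of the 49 genes. More than 10% of the exon bases overlap other genes in 15 of them, and pseudogenes carry the name of 12. The library kit does not mark strand, so read pairs from overlapping genes on opposite strands cannot be told apart. Among the 25 genes with neither, 10 were downregulated with ATRA in scramble cells and 12 in shKDM3B cells, and the medians were -0.53 and -0.54. The median of shKDM3B+ATRA against scramble+ATRA was -0.03 in these 25 genes, beside -0.14 in the 49, with 0 called in both, and the medians of the silencing without ATRA and of the difference between both responses were -0.07 and -0.17.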

How the data were processed

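RNA-seq counts of 8 NB4 libraries were analysed. Per the methods, the authors removed adapters (Trim Galore), mapped paired reads on hg38 (HISAT2) and counted pairs per gene (HTSeq), and the submitters' processing notes also name Picard and SAMtools. Versions are not given in the sources used here. The deposited values are raw counts per gene, without normalization, and 5 summary lines that were kept out of library sizes. Gene names follow Ensembl usage, although RefSeq is the annotation stated. The files list 56470 names for untreated and 56609 for ATRA libraries, and tests across ATRA used the 37526 shared names.

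Depth was 9708739 to 33017787 read pairs on genes. Each pair of groups was fitted with edgeR 4.0.16 in R 4.3.3 (filterByExpr, TMM, quasi-likelihood test over all genes), and the difference between both ATRA responses as an interaction over all 8 libraries. A gene was called at an unadjusted P under 0.05 and at least 1.5-fold, as in the study's methods. Benjamini-Hochberg adjusted p-values over all genes stand beside it, and standard errors were the log2 fold change over the root of F. CPM were scaled by TMM over the 8 libraries. With 2 libraries against 2, no permutation test can go below a two-sided p of 0.333. Lists are described by counts and medians, without a set test.

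Groups came from the sample titles. The 49 genes, the 97 further genes and the tests were chosen with earlier results of these data known. Named were the genes with the lowest P among those called in each comparison, 14 fixed genes of the 6 roles, the 3 further pathway genes with the lowest P per direction and KDM3B, ITGAM and MYC. POLR1C, POLR1E, NHP2, RRP12, TAF1B and others outside this rule were named after their values were seen. Positions and exon overlaps are from GENCODE v44 on hg38. The code was tested on simulated data. DESeq2 1.42.0, other scalings and filters, adjusted thresholds, a replicate block and leaving out each library were tried as alternatives. Summaries used scipy 1.17.1, numpy 2.4.6 and pandas 2.3.3 under Python 3.11.15, and plots matplotlib 3.10.9.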

Additional observations from a re-analysis of the deposited data

Results flagged for a closer look

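Read pairs outside genes are data that the comparisons of the 49 genes do not use. They made up 50.0% of the uniquely aligned pairs of scramble+ATRA replicate 2, and 51.4% and 51.0% of those of the shKDM3B+ATRA libraries, replicates 1 and 2, against 8.83% and 9.28% in the scramble libraries and 9.36% in scramble+ATRA replicate 1. What these pairs are was not tested.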

How the results depend on the processing

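In the ATRA comparison of shKDM3B cells, 23 to 28 genes were called lower under every alternative run on all 49 genes except an adjusted p under 0.05 with no fold threshold, which gave 36, and the median was -0.67 with upper-quartile scaling, -0.65 with all 8 libraries in one fit and -0.57 to -0.65 with a library left out. In scramble cells the number called lower was 27 with library size alone, which shifts the median of all genes from 0.02 to -0.09, and 1 under an adjusted p under 0.05 with or without the fold threshold. The number with an adjusted p under 0.05 was 11 with DESeq2, 16 with all 8 libraries in one fit, 8 without a low-count filter, 4 with the likelihood ratio test and 31 without scramble+ATRA replicate 1. The number called lower was 20 with DESeq2, and it ran from 1 to 31 with each library left out, the median from -0.73 to -0.43. Among the 25 genes without overlapping exons or named pseudogenes, chosen after seeing the data, 10 and 12 were called lower with ATRA in scramble and shKDM3B cells, and the median in the latter was -0.54. For shKDM3B against scramble the median was -0.11 with upper-quartile scaling and -0.07 to 0.02 with a library left out, with 0 to 1 genes higher and 0 to 1 lower. With ATRA, leaving out a library gave 0 to 4 genes higher and 0 to 11 lower, and RRN3 ran from -2.32 to 0.85, the latter without scramble+ATRA replicate 1. For the difference between both responses, leaving out a library gave 0 to 1 higher, 0 to 11 lower and medians of -0.32 to 0.10. The causes were not tested.

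The labels share replicate numbers 1 and 2 across groups. With 2 pairs the libraries share only a number, and the correlations of same-numbered deviations were 0.416 for shKDM3B against scramble, 0.0377 with ATRA, -0.129 for ATRA in scramble cells and 0.214 for ATRA in shKDM3B cells. With the replicate block 16 genes were called lower with ATRA in scramble cells, 15 of them shared with the reported 17, and 25 in shKDM3B cells, 24 of them shared with the reported 24 and the other being RRN3. In the difference between both responses the block called 1 gene lower, RRN3, and in both silencing comparisons 0, although 9 genes had an unadjusted P under 0.05 with the block for shKDM3B against scramble. A crossed pairing, chosen after seeing the data, called 21 lower with ATRA in scramble cells.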
